A study of Mus musculus with 12 samples.

Results

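Leptin, its receptor and the core of its signalling pathway were followed through epididymal white adipose tissue (eWAT) of diet-induced obese mice. The 5 genes were *Lep*, *Lepr*, *Jak2*, *Stat3* and *Socs3*, taken by gene identifier from the 23474 genes of the expression table. The study compared C57BL/6J male mice, 17 weeks old at sampling, that had eaten their diets for 12 weeks from the age of 5 weeks, with 10 mice per diet. The ND group had a normal diet, the HFD group a high-fat diet, the GT group the high-fat diet plus an ethanol extract of green tea at 0.25% (w/w), and the TJ group the high-fat diet with 3% (w/w) Taeeumjowitang, a herbal preparation. Each group was measured by RNA-seq in 3 libraries of eWAT, and expression was given as FPKM, a fragment count scaled by transcript length and library size. Since eWAT is a mixture of cell types, fewer cells of one type and less RNA per cell cannot be told apart in these values.

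Leptin is a hormone secreted by adipocytes, and its transcript is known to rise with fat mass. It binds the leptin receptor, whose long form activates the associated kinase JAK2. JAK2 phosphorylates the transcription factor STAT3, which turns on target genes that include *Socs3*, and the SOCS3 protein in turn binds the receptor and JAK2 and dampens the signal.

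The first ND library stood apart from the others. Its median Spearman correlation with the other libraries was 0.244, against 0.790 for the third ND library and 0.916 to 0.973 for the rest. The summed level of 8 testis germ cell markers was 98971 FPKM in it, and that of 8 epididymis markers was 15777 FPKM, while its 10 adipocyte markers summed to 7355 FPKM against 19186 to 69473 FPKM in the other libraries. Germ cell markers were also at 2980 FPKM in the third ND library and at 2061 FPKM in the first HFD library, and epididymis markers at 1662 FPKM in the second HFD library. The short against long transcript balance, the difference in median log2 level between genes under 1000 and over 4000 nucleotides relative to the typical library, was 3.25 in the first ND library and 0.72 in the second TJ library, and lay between -0.26 and 0.27 elsewhere. Fold changes against the ND group are therefore given with and without the first ND library. Adipocyte and macrophage markers also moved with diet. Without the first ND library, the 10 adipocyte markers summed to 27278 and 40242 FPKM in ND, 19186 to 21118 in HFD, 26171 to 31901 in GT and 32602 to 69473 in TJ. The 10 macrophage markers summed to 454 to 579 FPKM in ND, 3141 to 4440 in HFD, 1276 to 2902 in GT and 745 to 2290 in TJ.

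**Figure D1:**
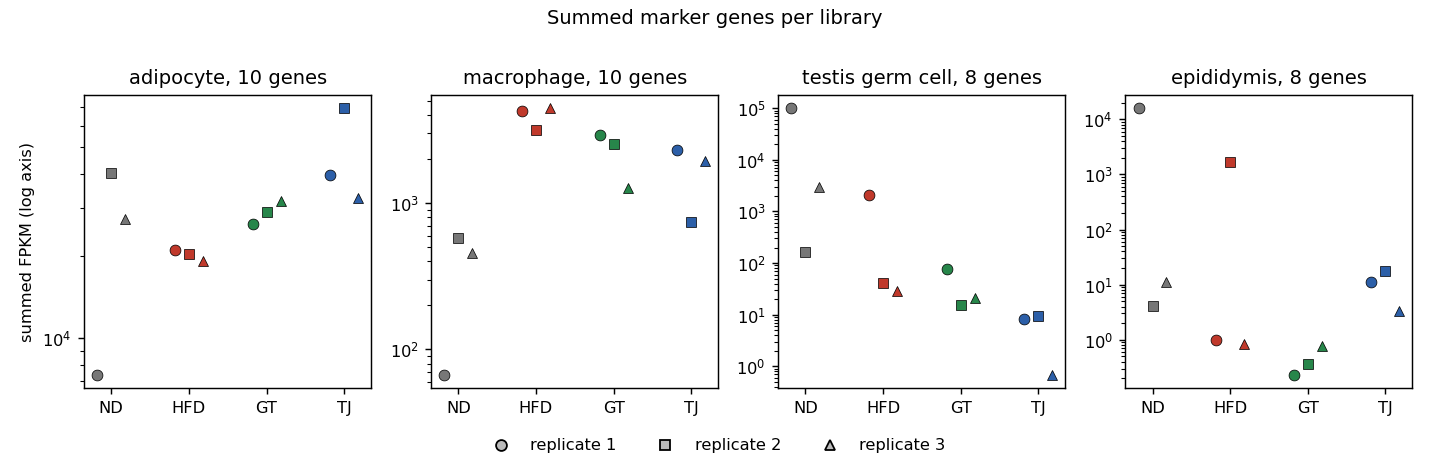
Summed FPKM (log axis) of markers of adipocytes, macrophages, testis germ cells and epididymis, one point per library, by diet group. The first ND library holds 98971 FPKM of germ cell markers and 7355 FPKM of adipocyte markers, and macrophage markers are highest in the 3 HFD libraries.

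The promoters of the ligand gene and of the inhibitor gene are shown because these are the ends of the pathway that are controlled at the level of transcription. On GRCm38, *Lep* (ENSMUSG00000059201) spans chr6:29060220-29073877 on the plus strand and *Socs3* (ENSMUSG00000053113) spans chr11:117966079-117970047 on the minus strand. The 250 bases before each RefSeq start (GRCm38.p6) lie at chr6:29059971-29060220 for *Lep* and at chr11:117969367-117969616, read on the minus strand, for *Socs3*. The *Socs3* window thus lies inside the annotated span of the gene and not before it, since the RefSeq start used is within that span. Capitals mark the motif matches described after the sequences.
Lep: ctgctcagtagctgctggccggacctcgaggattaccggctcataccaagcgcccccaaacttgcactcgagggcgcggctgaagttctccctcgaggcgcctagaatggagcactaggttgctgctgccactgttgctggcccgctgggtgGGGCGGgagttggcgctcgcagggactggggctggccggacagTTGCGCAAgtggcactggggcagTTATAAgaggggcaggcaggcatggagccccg
Socs3: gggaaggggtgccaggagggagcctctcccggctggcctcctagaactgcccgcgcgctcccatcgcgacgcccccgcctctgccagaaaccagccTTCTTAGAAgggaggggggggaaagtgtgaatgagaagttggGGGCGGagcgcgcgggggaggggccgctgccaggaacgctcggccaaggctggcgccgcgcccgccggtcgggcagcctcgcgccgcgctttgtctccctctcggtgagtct
These motifs were searched on both strands of a window of 300 bases, from 250 before to 50 after the start. The *Lep* promoter held the C/EBP palindrome TTGCGCAA, whose first base lies 55 bases before the start and which 0.183% of 32851 promoter windows hold. It also held GGGCGG, a GC box, 98 bases before the start, and TATAA on both strands, overlapping in the capitals TTATAA, with first bases 31 and 32 bases before the start. GGGCGG is in 35.7% and TATAA in 24.9% of all windows. The *Socs3* window held TTCNNNGAA, the form of a STAT binding site, 154 bases before the RefSeq start. It also held GGGCGG 112 bases before that start and, on the other strand, 31 bases after it, beyond the printed bases. TTCNNNGAA is in 8.30% of all windows, and these letters were not in the windows of *Lep*, *Lepr*, *Jak2* or *Stat3*. A match of letters is a description of the sequence only.

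*Lep* differed most among the diets. Its level was 7.97, 323 and 317 FPKM in the ND libraries and 899, 1196 and 1186 FPKM in the HFD libraries. It was 1143, 1117 and 1366 FPKM in the GT libraries and 719, 292 and 825 FPKM in the TJ libraries. Every HFD and GT library was above every ND and TJ library, the HFD and GT libraries overlapped, and the second TJ library was near the last 2 ND libraries. The group means were 216 ± 180 FPKM in ND (320 ± 4.33 FPKM, n = 2, without the first library), 1094 ± 169 in HFD, 1209 ± 137 in GT and 612 ± 282 in TJ (SD, n = 3). On the per-length FPKM scale the mean levels in HFD were ordered *Lep* at 1094, *Stat3* at 50.7, *Jak2* at 12.6, *Socs3* at 5.18 and *Lepr* at 0.905 FPKM. *Lep* was thus the most abundant of the 5 transcripts in HFD and the receptor the least, and the libraries of neighbouring genes in this order did not overlap within HFD.

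For *Lep* in HFD against ND, the log2 fold change, on the log2(FPKM + 1) scale used for all fold changes here, was 3.48 ± 1.43 (SE) and did not pass limma's test (adjusted p = 0.434). Without the first ND library *Lep* rose in the HFD group by 1.76 ± 0.17 (SE, limma adjusted p = 0.00358), a mean 3.42 times that of the 2 remaining ND libraries. With the replicate number as a block, and all ND libraries kept, the limma adjusted p was 0.256. The *Lep* value in TJ against HFD was -0.96 ± 0.39 (SE, limma adjusted p = 0.111), so that the lower level in TJ did not pass the test. Without the second TJ library it was -0.49 ± 0.16 (SE, limma adjusted p = 0.0809). That library had a higher adipocyte marker sum, at 69473 FPKM, and a lower macrophage marker sum, at 745 FPKM, than any other TJ library. Most of its adipocyte sum was *Fabp4*, at 48299 FPKM. *Lpl* and *Slc2a4* were lower in it than in the other TJ libraries, and the remaining adipocyte markers were higher. In GT against HFD the *Lep* difference was 0.15 ± 0.15 (SE, limma adjusted p = 0.520). The HFD libraries are shared by all these comparisons. The 3 against 3 exact permutation test (two-sided) cannot go below p = 0.1, and *Lep* reached that value in HFD against ND, TJ against HFD, GT against ND and TJ against GT. In TJ against ND the log2 difference was 2.52 and the 2 groups overlapped (exact permutation p = 0.3). Without the first ND library the log2 difference of *Lep* was 0.80 in TJ against ND and 1.91 in GT against ND.

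**Figure D2:**
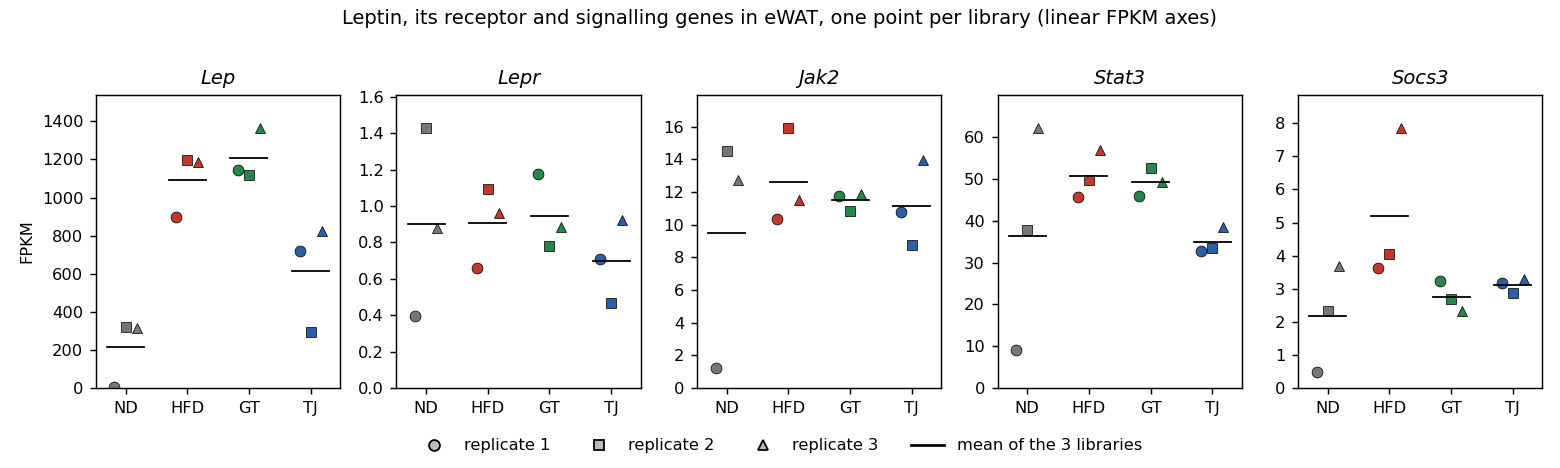
FPKM (linear axes) of *Lep*, *Lepr*, *Jak2*, *Stat3* and *Socs3* in each of the 12 libraries by diet group, with horizontal bars at the mean of the 3 libraries. *Lep* is at 899 to 1366 FPKM in the HFD and GT libraries and at most 825 FPKM in the TJ libraries, and the first ND library is the lowest point for all 5 genes.

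*Lepr* (ENSMUSG00000057722, chr4:101717404-101815352, plus strand) encodes the receptor in a long signalling form and shorter forms, which gene-level values cannot separate. It was scarce in eWAT, and roughly 24.5 to 141 fragments per library, estimated from the FPKM values, stood behind its levels. The levels were 0.394, 1.43 and 0.877 FPKM in ND and 0.657, 1.10 and 0.961 FPKM in HFD. They were 1.18, 0.778 and 0.885 FPKM in GT and 0.707, 0.468 and 0.923 FPKM in TJ. All groups overlapped. *Lepr* stayed under the minimum mean of 1 FPKM in the 3 comparisons and was not tested by limma there, so that 4 of the 5 genes were tested. Its log2 difference was 0.03 in HFD against ND, -0.17 in TJ against HFD and 0.03 in GT against HFD, with exact permutation p-values of 0.9, 0.4 and 0.9. Without the first ND library it was -0.17 in HFD against ND. No difference was detectable at this depth.

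*Jak2* (ENSMUSG00000024789, chr19:29251828-29313080, plus strand), the kinase bound to the receptor, was measured at 1.23, 14.5 and 12.7 FPKM in ND and at 10.3, 15.9 and 11.5 FPKM in HFD. Its levels were 11.7, 10.9 and 11.9 FPKM in GT and 10.8, 8.74 and 13.9 FPKM in TJ. The groups overlapped in every pair, and only the first ND library was far from the others. The log2 fold change of *Jak2* was 0.78 ± 0.79 (SE, limma adjusted p = 0.613) in HFD against ND and turned to -0.12 without the first ND library. It was -0.16 ± 0.22 (SE, limma adjusted p = 0.574) in TJ against HFD and -0.10 ± 0.16 (SE, limma adjusted p = 0.677) in GT against HFD.

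*Stat3* (ENSMUSG00000004040, chr11:100885098-100939540, minus strand), the transcription factor of the pathway, was expressed at 9.09, 37.7 and 62.2 FPKM in ND and at 45.7, 49.7 and 56.8 FPKM in HFD. It was at 45.9, 52.5 and 49.1 FPKM in GT and at 32.7, 33.5 and 38.5 FPKM in TJ. All 3 TJ libraries lay under all HFD and GT libraries, and ND overlapped with every group. The *Stat3* difference in TJ against HFD was -0.52 ± 0.14 on the log2 scale (SE, limma adjusted p = 0.0432), a mean 1.45-fold lower, which passed the adjusted p threshold of 0.05 but not the fold threshold of 1.5. When the trend of the fold changes with transcript length was removed, the value was -0.16 (limma adjusted p = 0.412). The adjusted p of *Stat3* was also over 0.05 with median-of-ratios scaling (0.106), no filter (0.0629), no variance trend (0.0516) and all 12 libraries in the limma fit (0.659), and without HFD replicate 1, 2 or 3 or TJ replicate 1 (0.0701 to 0.152). It passed both thresholds with array weights (-0.63, limma adjusted p = 0.00338) and without TJ replicate 3 (-0.59, limma adjusted p = 0.0381). With all ND libraries, the difference in HFD against ND was 0.82 ± 0.69 (SE, limma adjusted p = 0.556), and without the first ND library it was 0.06. In GT against HFD it was -0.04 ± 0.11 (SE, limma adjusted p = 0.833). The 3' ends of *Stat3* and *Stat5a* overlap on opposite strands, and without strand information reads in the overlap cannot be told apart.

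*Socs3*, the feedback inhibitor, was low, at 0.499, 2.33 and 3.69 FPKM in ND and 3.63, 4.05 and 7.87 FPKM in HFD. It was at 3.24, 2.68 and 2.33 FPKM in GT and at 3.17, 2.86 and 3.29 FPKM in TJ. The GT and TJ libraries all lay under the HFD libraries, the third HFD library was the highest, and ND and HFD overlapped. The log2 fold change was -0.67 ± 0.26 (SE, limma adjusted p = 0.147) in GT against HFD, -0.53 ± 0.26 (SE, limma adjusted p = 0.164) in TJ against HFD and 1.05 ± 0.54 (SE, limma adjusted p = 0.494) in HFD against ND, or 0.58 (limma adjusted p = 0.348) without the first ND library. Without HFD replicate 3, the highest library, the *Socs3* value was -0.38 in GT against HFD and -0.24 in TJ against HFD, and with quantile normalization it was -0.41 and -0.23. None of these passed the test. With array weights *Socs3* passed both thresholds, at -0.89 in GT against HFD (limma adjusted p = 0.0234) and -0.67 in TJ against HFD (limma adjusted p = 0.0459). GT and TJ differed by 0.14 on the log2 scale for *Socs3* and overlapped (exact permutation p = 0.3).

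A gene was called where limma's adjusted p was under 0.05 and the fold change at least 1.5. In HFD against ND 0 of the 4 tested genes were called by limma and 0 had an unadjusted p under 0.05, while 1.77% of all 14430 genes tested were called. That share depended on the model and on the libraries kept, since 0 genes were called with the replicate block on the same libraries and 15.4% without the first ND library, among them *Lep* as 1 of 5. Limma called 0 of the 4 in TJ against HFD, with 2 at an unadjusted p under 0.05, beside 18.5% of all genes. In GT against HFD limma called 0 of the 4, with 1 at an unadjusted p under 0.05, beside 3.63% of all genes. By separation of the libraries, *Lep*, *Stat3* and *Socs3* did not overlap between TJ and HFD, as 51.5% of all genes did not, *Socs3* did not overlap between GT and HFD, beside 36.7% of all genes, and *Lep* did not overlap between HFD and ND, beside 26.4%. At an unadjusted p under 0.05 were 11.6% of all genes in HFD against ND, 41.4% in TJ against HFD and 29.3% in GT against HFD. The counts of the 5 genes and of the lists are to be read against these shares.

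Adiponectin (*Adipoq*), another hormone made by adipocytes, gives a level within the same library to set *Lep* against. On the per-length FPKM scale the *Lep* to *Adipoq* ratio was 0.0395, 0.116 and 0.173 in ND and 0.875, 1.15 and 1.31 in HFD. It was 0.908, 0.642 and 0.642 in GT and 0.298, 0.0782 and 0.366 in TJ. The HFD libraries were above all ND and all TJ libraries, and the GT libraries overlapped with HFD only through the first GT library. The mean ratio was 0.110 ± 0.0672 in ND (0.145 without the first library), 1.11 ± 0.219 in HFD, 0.731 ± 0.154 in GT and 0.248 ± 0.151 in TJ (SD, n = 3).

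The ratio was 11.8-fold higher in HFD than in ND and 5.37-fold lower in TJ than in HFD by geometric means, each with the smallest exact permutation p of 0.1. Without the first ND library the ratio was 7.73-fold higher in HFD than in ND, and without the second TJ library it was 3.32-fold lower in TJ than in HFD. TJ was 3.53-fold lower than GT (exact permutation p = 0.1), and 2.18-fold lower without the second TJ library. In these reduced sets the groups still did not overlap. GT against HFD gave a log2 difference of -0.61 (exact permutation p = 0.2). Against the median of the other adipocyte markers in place of *Adipoq*, the log2 differences were 4.43 in HFD against ND, -2.24 in TJ against HFD and -1.18 in GT against HFD, and in that last comparison the groups no longer overlapped (exact permutation p = 0.1). With these markers the log2 difference was 3.54 in HFD against ND without the first ND library and -1.60 in TJ against HFD without the second TJ library. TJ was 2.08-fold lower than GT with these markers, and 1.33-fold lower without the second TJ library. *Adipoq* itself was at 2781 and 1826 FPKM in the last 2 ND libraries, at 908 to 1037 FPKM in HFD, at 1258 to 2129 FPKM in GT and at 2253 to 3738 FPKM in TJ. Both parts of the ratio were thus separated between TJ and HFD and, without the first ND library, between HFD and ND, where the mean of *Adipoq* was 2.33-fold lower in HFD and that of *Lep* 3.42-fold higher. Between GT and HFD *Adipoq* was separated while *Lep* overlapped. Of the 10 adipocyte markers 7 rose and 0 fell in TJ against HFD, beside 7.41% and 11.1% of all genes, 3 rose in GT against HFD, beside 1.83% of all genes, and none was at 0 FPKM in any library. Without the filter on low values 0 of the adipocyte markers were called in either comparison, and the replicate block left 4 in TJ and 0 in GT. In TJ against HFD these calls were lost without HFD replicate 1, 2 or 3 or TJ replicate 1. The part of the adipocyte markers in the *Lep* values was not tested.

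**Figure D3:**
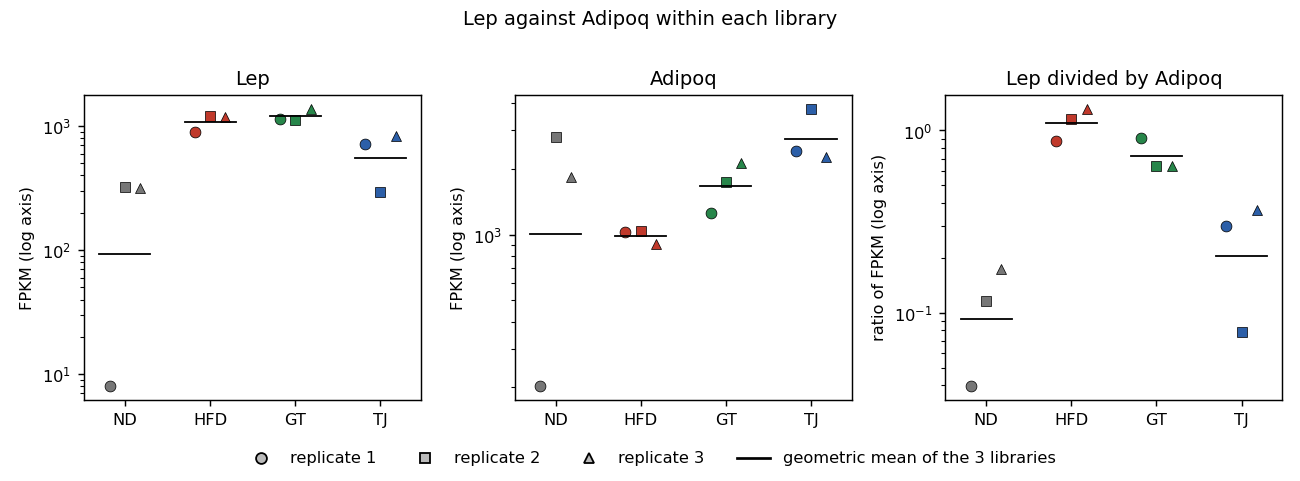
*Lep* FPKM, *Adipoq* FPKM and their ratio (log axes) in each library by diet group, with horizontal bars at the geometric mean of the 3 libraries. The ratio lies at 0.875 to 1.31 in HFD and at 0.0782 to 0.366 in TJ, with *Adipoq* higher and *Lep* lower in every TJ library than in every HFD library.

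The wider pathway was described by a list of 35 genes for leptin, receptor and receptor trafficking, transducers and inhibitors. In HFD against ND, 33 were tested and 0 called by limma, with 6 at an unadjusted p under 0.05, and the median log2 fold change was 0.74 against 0.07 for all genes. Without the first ND library 8 rose and 3 fell, with a median of -0.03 against -0.02 for all genes. *Leprot* (0.84) and *Leprotl1* (0.78), which limit the amount of receptor at the cell surface, rose with *Lep*. Of the 22 transducers *Grb2* (1.53), an adaptor to the Ras pathway, and *Akt1* (0.91), a kinase, rose, and *Irs2* (-1.30), the insulin receptor substrate, *Akt2* (-0.86) and *Pik3cb* (-0.84), a catalytic subunit of PI3-kinase, fell. Of the inhibitors, the tyrosine phosphatases *Ptpn1* (1.28), *Ptprj* (1.44) and *Ptpre* (1.72) rose, all with 2 ND libraries. Of all genes tested without the first ND library 11% rose and 4.34% fell. In the same fit 9 of the 10 macrophage markers rose, and 6 of the 10 adipocyte markers fell and 0 rose, with a median of -0.90. Their part in these changes was not tested.

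In TJ against HFD 34 of the 35 genes were tested, 2 rose and 4 fell, with a median of -0.27 against -0.14 for all genes. Without the filter on low values 1 gene of the list was called, and with the replicate block 3. Of all genes tested in this comparison 7.41% rose and 11.1% fell. *Grb2* fell by 1.05, *Ptpn1* by 0.94, *Ptprj* by 1.33 and *Ptpre* by 1.20 on the log2 scale. Against ND without its first library the HFD values of these 4 genes were those given above, and the HFD libraries are shared by both comparisons. PTPN1, also called PTP1B, dephosphorylates JAK2 and is a known brake on leptin signalling. *Ptpn1* was at 30.8, 32.4 and 32.8 FPKM in HFD and at 18.1, 13.7 and 17.2 FPKM in TJ, without overlap. *Ptpre* was at 13.8, 14.4 and 16.6 FPKM in HFD and at 8.30, 3.00 and 7.95 FPKM in TJ, again without overlap and with the second TJ library the lowest. *Akt2* rose by 0.81 and *Socs1*, another member of the SOCS family, by 1.14. *Socs1* was at 1.45, 0.225 and 1.01 FPKM in HFD and at 3.25, 2.97 and 2.80 FPKM in TJ, and its call was lost without the second TJ library, when 1 gene rose and 4 fell and 15.7% of all genes were called. Every call in TJ against HFD, here and in the lists that follow, was lost without HFD replicate 1, 2 or 3 or TJ replicate 1, where limma called 0 genes. *Cish*, a further SOCS family member, was the highest value of the list at 1.17 and was not called. The macrophage markers, summed at 3141 to 4440 FPKM in HFD and 745 to 2290 FPKM in TJ, moved the same way as *Grb2* and the phosphatases. Of these 10 markers 7 fell and 0 rose, against the shares of all genes given above, and none was at 0 FPKM in any library. Without the filter on low values 0 of them were called. Their part in these results was not tested.

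In GT against HFD 33 were tested, 1 rose and 0 fell, with 11 at an unadjusted p under 0.05 in limma and a median of -0.05 against -0.12 for all genes. Of all genes tested 1.83% rose. *Akt2*, a kinase of the insulin and leptin pathways, rose by 0.63 and was at 162, 184 and 205 FPKM in GT against 121, 119 and 114 FPKM in HFD. *Cish* was the highest of the list at 1.98 ± 0.51 (SE, limma adjusted p = 0.0686), with 2.68, 4.97 and 15.8 FPKM in GT and 0.661, 1.03 and 0.783 FPKM in HFD. The 3 GT libraries of *Cish* were all above the HFD libraries but far apart from each other. *Ptpre* was the lowest at -0.68 (limma adjusted p = 0.0683). The adipocyte markers, summed at 26171 to 31901 FPKM in GT and 19186 to 21118 FPKM in HFD, moved the same way as *Akt2*. The macrophage markers, summed at 1276 to 2902 FPKM in GT and 3141 to 4440 FPKM in HFD, moved the same way as *Ptpre*. The part of these markers in the GT values was not tested. With 1 library left out, 0 to 5 genes of the list were called in GT against HFD, and 0 in each case but that without GT replicate 1.

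**Figure D4:**
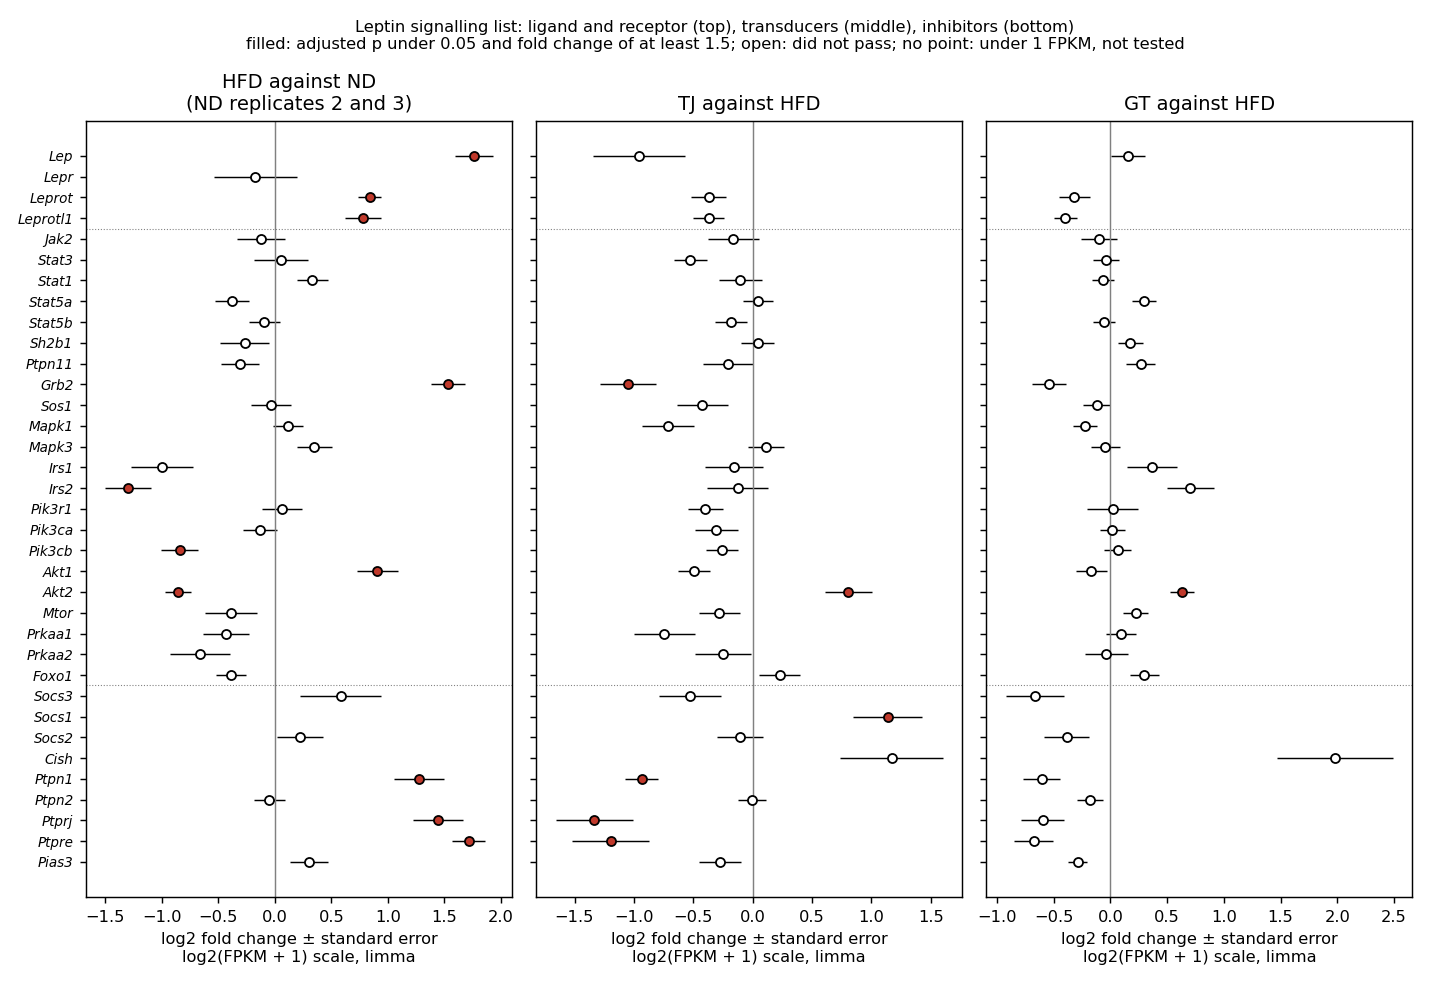
Log2 fold changes with standard errors (limma, log2(FPKM + 1) scale) of the leptin signalling genes in HFD against ND with ND replicates 2 and 3, in TJ against HFD and in GT against HFD, with filled points for called genes. In the TJ panel *Grb2*, *Ptpn1*, *Ptprj* and *Ptpre* are filled to the left of 0 and *Akt2* and *Socs1* to the right, and in the GT panel *Akt2* alone is filled. The HFD libraries are shared by the 3 panels.

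STAT3 is shared with cytokine receptors that use the gp130 subunit or JAK1, and these were described by a list of 14 genes. For TJ against HFD 9 were tested, 0 rose and 2 fell, beside 7.41% and 11.1% of all genes. These were *Il6ra*, the interleukin-6 receptor, by 1.20 and *Jak1*, the kinase of these receptors, by 0.82. In GT against HFD limma called 0 of 9, with 3 at an unadjusted p under 0.05. In HFD against ND limma called 0 of 9, with 2 at an unadjusted p under 0.05, and 4 rose without the first ND library, led by *Il10ra* (1.73), beside 11% of all genes. In that last fit 9 of the 10 macrophage markers also rose, and in TJ against HFD macrophage markers fell, as given above. The part of these markers in the receptor values was not tested.

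Of 12 known STAT3 target genes, *Socs3* among them, 11 were tested in each comparison. In HFD against ND 2 rose, beside 1.73% of all genes, the acute-phase gene *Saa3* (4.53) and the protease inhibitor *Timp1* (3.36), and 5 rose without the first ND library, beside 11% of all genes. With the replicate block both calls were lost (limma adjusted p = 0.0594 for *Saa3* and 0.107 for *Timp1*). *Timp1* was at 42.6, 22.0 and 39.3 FPKM in HFD, at 13.2, 10.4 and 6.00 FPKM in GT and at 8.45, 3.89 and 6.60 FPKM in TJ. It was lower in every GT and TJ library than in every HFD library, and fell by 1.72 in GT and by 2.28 in TJ. It was the 1 of 11 targets that fell in GT, beside 1.81% of all genes, and that call was lost without the filter (limma adjusted p = 0.0895) and with the replicate block (limma adjusted p = 0.0984). In TJ 2 of 11 fell, beside 11.1% of all genes. Of 8 markers of progenitor and stromal cells 3 fell in GT and 3 in TJ. Without the filter these were 0 and 1, and with the replicate block 0 and 2. *Ly6a*, also among the 8, was at 149, 148 and 125 FPKM in HFD and higher in every TJ library, at 203, 445 and 200 FPKM. The part of the progenitor and stromal markers in these values was not tested. *Lcn2*, which encodes an iron-siderophore carrier, fell by 2.45 in TJ against HFD, with 24.0, 24.2 and 12.2 FPKM in HFD and 2.21, 2.12 and 4.03 FPKM in TJ. It was at 1391 FPKM in the first ND library, the one rich in epididymis markers. *Saa3* was at 89.3 to 102 FPKM in HFD and at 146.6, 36.5 and 177 FPKM in TJ, and the groups overlapped.

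Factors known to act on *Lep* transcription, a list of 7 genes, gave 0 calls in limma in the 3 comparisons. The number at an unadjusted p under 0.05 was 0 in HFD against ND, 5 in TJ against HFD and 3 in GT against HFD, beside 11.6%, 41.4% and 29.3% of all genes at that threshold. In TJ against HFD the lowest was *Hif1a*, the hypoxia factor, at -0.87 (limma adjusted p = 0.0528), and the highest was *Pparg*, the main transcription factor of adipocytes, at 0.64 (limma adjusted p = 0.0547).

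The genes with levels most like those of *Lep* were sought among 13831 genes by Pearson's r of log2(FPKM + 1) across libraries, as a description. Over the 12 libraries, *Uvrag* came first (r = 0.992), and the low first ND library is among these points. Over the 11 libraries without it, *Slc5a7*, the high-affinity choline transporter, came first (r = 0.996), followed by *Endod1* (0.986), *Dock8* (0.980), *Ncan* (0.973) and *Cyb5b* (0.973). *Slc5a7* was at 5.69 and 6.45 FPKM in the last 2 ND libraries, 20.8 to 29.1 FPKM in HFD, 29.9 to 39.2 FPKM in GT and 16.7, 4.57 and 19.5 FPKM in TJ. The second TJ library was near the last 2 ND libraries for *Slc5a7*, as it was for *Lep*. For the other genes, too, the first place changed without the first ND library. The gene most like *Lepr* was *Triqk* over the 12 libraries (r = 0.936) and *Mapre1* over the 11 (0.923), and for *Jak2* these were *Cul2* (0.996) and *Stxbp6* (0.960). For *Stat3* they were *Pik3r4* (0.982) and *Pfkp* (0.950), and for *Socs3* *Irf2bp2* (0.930) and *Taf12* (0.941).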

How the data were processed

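Gene-level FPKM values of 12 eWAT libraries, 3 per group, were used as deposited. The authors made them from reads processed with CASAVA 1.8.2, aligned with STAR 2.4.0 and quantified with Cufflinks 2.1.1, per the processing notes. FPKM keeps no counts, so depth was approximated from the lowest values, at 11.2 M fragments in the first ND library and 15.5 M to 21.4 M in the others. Of 23474 rows, 22671 matched a mouse gene symbol. The 5 genes, the lists and the tests were chosen with earlier results of these data known.

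Fold changes were fitted by limma 3.58.1 (R 4.3.3) on log2 values with a pseudocount of 1, with the prior variance allowed to follow the mean. Each fit took the 2 groups compared and kept genes averaging 1 FPKM or more, with Benjamini-Hochberg adjustment over all genes tested. The thresholds for a call were 0.05 for the adjusted p and 1.5 for the fold change. A fold change on this scale understates the change of low genes. The fitting code was tested on simulated data. Single values were compared by two-sided exact permutation tests (SciPy 1.17.1). The labels give 3 libraries per group without saying whether each is 1 mouse. The study's methods state that eWAT came from 3 mice chosen at random in the HFD and in the TJ group. For ND and GT this is not given in the sources used here, and there p-values may measure only technical spread. Named genes were the 5 genes, the called and the highest and lowest genes of each list, and those most like each gene, of which the first are given. Promoters came from RefSeq (GRCm38.p6).

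Replicate numbers are shared by the groups. Deviations from the group mean correlated at 0.547, 0.342 and 0.122 for same-numbered libraries in HFD against ND, all over the limit of 0.1 for pairing. HFD replicate 3 and ND replicate 2, of unlike number, correlated at 0.626, so the numbers are not shown to be pairs. The main fits and the exact permutation tests took no pairing, and the replicate block is an alternative. The labels name no shared batch. In TJ against HFD and GT against HFD the same-numbered libraries were not all over the limit. Alternatives were other pseudocounts, filters and scalings, a shared fit, the replicate block, array weights, removal of the transcript length trend and leaving out each library. The length trend removal, the fit on all libraries except the first ND library, the search for similar genes over 11 libraries and the *Lep* ratios with single libraries left out against other markers or groups were chosen after seeing the data.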

Additional observations from a re-analysis of the deposited data

How the results depend on the processing

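With 3 libraries per group, called counts moved with the settings while the *Lep* direction held in HFD against ND and TJ against HFD under every alternative. Depth was only approximated, and the causes of the moves were not tested. The 5 genes had 0 calls in most settings, 1 in HFD against ND with array weights and in the fit on all libraries except the first ND library, 3 in TJ against HFD and 1 in GT against HFD with array weights, and 0 to 1, 0 to 1 and 0 to 0 with 1 library left out.

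In HFD against ND, all genes called, 255, were 126 and 111 with pseudocounts of 0.1 and 0.01, 1131 with all 12 libraries in the fit, 1885 with array weights, 2656 without the first ND library in a shared fit and 0 to 2098 with 1 library left out. The signalling list then had 6 called in the fit of 12, 11 with array weights, 1 without the length trend, 12 in the fit on all but the first ND library and 0 to 11 with 1 left out. *Lep* was 1.92 with array weights and 1.76 without the first ND library, and 1.76 to 4.35 with 1 library left out. *Jak2* was -0.015 with array weights, and -0.12 without the first ND library to 1.28 without the second, and *Stat3* was -0.028 with array weights.

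In TJ against HFD 2366 genes were called, 382 without a filter, 1 with all 12 libraries in the fit and 0 to 3412 with 1 left out, 0 without each of HFD replicates 1, 2 and 3 and TJ replicate 1. The list had 1 called without a filter, 0 in the fit of 12, 11 with array weights and 0 to 8 with 1 left out. *Lep* was -0.68 with array weights (limma adjusted p = 0.0202). *Jak2* was 0.025 with quantile normalization, 0.13 without the length trend, and -0.32 to 0.0058 (without HFD replicate 2) with 1 left out. Of the calls, 949 were higher and 1417 lower, and 1285 and 1082 with median-of-ratios scaling, under which the median of all genes moved from -0.14 to -0.02.

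In GT against HFD 464 genes were called, 5 without a filter, 1 in the fit of 12, 67 without the variance trend, 1415 with array weights, 139 without the first ND library in the fit and 4 to 1107 with 1 left out, and the calls split 233 to 231 higher to lower, or 399 to 145 with median-of-ratios scaling. The list had 2 called with each other pseudocount, 6 with array weights, 0 without a filter, in the fit of 12, without the variance trend and without the first ND library in the fit, and 0 to 5 with 1 left out. *Lep* was -0.0026 with array weights. *Jak2* was 0.019, 0.039 and 0.017 and *Stat3* 0.090, 0.049 and 0.091 with median-of-ratios scaling, quantile normalization and the length trend removed. With 1 library left out *Jak2* was -0.22 to 0.066 and *Stat3* -0.11 to 0.044.

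With the replicate block 0 genes were called in HFD against ND, 1198 in TJ against HFD and 5 in GT against HFD, and the list had 3 and 0 called in the last 2. In these last 2 the same-numbered libraries were not all over the limit for pairing. The limma adjusted p of *Stat3* in TJ against HFD was 0.0821 with the block.

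*Lepr* turned sign with median-of-ratios scaling in HFD against ND (-0.061) and with quantile normalization in TJ against HFD (0.23) and TJ against ND (0.31). With 1 library left out it was -0.17 to 0.23 in HFD against ND, -0.064 to 0.11 in GT against HFD, -0.34 to 0.062 in TJ against ND and -0.14 to 0.26 in GT against ND. *Jak2* was then -0.29 to 1.11 in TJ against ND, -0.23 to 1.17 in GT against ND and -0.22 to 0.088 in TJ against GT, *Stat3* -0.47 to 0.86 in TJ against ND and *Socs3* -0.082 to 0.74 in GT against ND. The lower ends against ND were without ND replicate 1.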
